A study of Mus musculus with 115 samples.

Results

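The expression of 10 genes of MHC class II antigen presentation was examined in the prostates of (TRAMP x WSB) F2 mice. The genes were H2-Aa, H2-Ab1, H2-Eb1, H2-DMa, H2-DMb1, H2-DMb2, H2-Oa, H2-Ob, Cd74 and Ciita. They were taken by symbol from the 45699 genes of the deposited table, and each symbol matched 1 Ensembl identifier. The genes were related to 3 marker genes that represent neuroendocrine cells (Chga), dividing cells (Mki67) and leukocytes (Ptprc, which encodes CD45).

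The study crossed TRAMP mice with the wild-derived inbred strain WSB/EiJ and sequenced RNA from bulk prostate tissue of the F2 offspring. By the labels all libraries, each from a different mouse, belong to 1 group of transgene-positive F2 males, with no control group and no treatment, although the study's text counts fewer prostates and does not say which libraries they were. The TRAMP transgene is the SV40 T antigen under a minimal probasin promoter, which is active in prostate epithelium, and every mouse carries it. Mice were collected at a fixed age or at a humane endpoint, and the age, genotype and tumor burden of each mouse were not used here. For small prostates the RNA came from the ventral lobe alone, and the labels do not say for which mice. Values are in TPM (transcript abundance scaled so that each library has the same total), which are adjusted for transcript length and keep no depth, so the counting error of each value is unknown. The first principal component of 14623 genes separated the libraries into a larger part of 79 and a smaller part of 36, and every comparison was made within a part. The epithelial and neuroendocrine markers describe the parts. In the larger part Tgm4, a secreted product of luminal cells, had a median of 7050 TPM and Chga one of 0.30 TPM. Their medians in the smaller part were 1.83 TPM and 57.2 TPM. The 20 genes with the largest share took 51.6% to 81.8% of the TPM of a library in the larger part and 48.9% to 75.3% in the smaller part.

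MHC class II molecules are pairs of an alpha and a beta chain that carry peptides from endocytosed proteins to the cell surface, where CD4 T cells read them. The invariant chain CD74 occupies the groove of new molecules, the H2-M dimer then exchanges its remnant for peptide, and the H2-O dimer restrains H2-M. The coactivator CIITA switches on most genes of the pathway through the SXY module of their promoters. Dendritic cells, macrophages and B cells express the pathway constitutively, and interferon gamma induces it in many other cells, epithelial cells included. In bulk tissue, a lower level can mean fewer cells of a type or less RNA per cell, and these cannot be told apart here.

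Of the 10 genes, 8 lie between 34092340 and 34316674 on chromosome 17 (GRCm38, GENCODE M21), in the MHC. From low to high coordinates they are H2-Oa, H2-DMa, H2-DMb2, H2-DMb1, H2-Ob, H2-Ab1, H2-Aa and H2-Eb1. Ciita lies on chromosome 16 from 10480059 to 10528418, and Cd74 lies on neither of these chromosomes. RefSeq promoter windows (GRCm38.p6) were matched for 7 members (H2-Aa, H2-Eb1, H2-DMa, H2-DMb1, H2-DMb2, H2-Oa and H2-Ob). H2-Ab1, Cd74 and Ciita were not matched. The 250 bases before each start were searched on both strands for the X box core ACNGATG and the Y box core GATTGG, which share the letters GAT while neither holds the other. Among all 32851 windows of this length, 8.31% held the X core, 14.6% the Y core and 0.0639% an X core that ended 12 to 32 bases before a Y core in the same orientation. Such a pair was found for 3 members (H2-Eb1, H2-DMb1 and H2-DMb2). The stretches of the chains whose levels are compared below are shown to let the spacing be seen, with the cores in capitals, each from 5′ to 3′ on the strand of its gene.
H2-Eb1: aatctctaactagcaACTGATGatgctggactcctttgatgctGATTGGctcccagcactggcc
H2-DMb2: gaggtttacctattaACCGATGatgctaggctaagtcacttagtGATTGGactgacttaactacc
H2-Aa: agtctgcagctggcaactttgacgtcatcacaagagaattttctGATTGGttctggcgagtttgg
The stretch of H2-Eb1 is chr17:34305764-34305827 on the plus strand, where the X core begins 88 bases and the Y core 60 bases before the start, with 21 bases between them. The stretch of H2-DMb2 is chr17:34145114-34145178 on the plus strand, with 22 bases between the cores, and H2-DMb1 had the same spacing of 22. The stretch of H2-Aa is chr17:34287852-34287916 on the minus strand and holds a Y core that begins 49 bases before the start, with no paired X core by these letters. A match describes the sequence only.

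H2-DMb1 and H2-DMb2 encode the 2 beta chains of H2-M, and the longest match between their transcripts had 95.7% identity over 1081 bases. At 95% identity over 80% of a transcript, H2-DMb1 matched H2-DMb2 and no other gene, so how reads were divided between the 2 genes is uncertain. The other members had no such copy. H2-DMa shared 360 of its 3448 exon bases with Brd2, and Ciita 329 of 9535 with Dexi, each on the other strand. H2-Oa shared 321 of 1407 with an antisense gene, BC051537, with a median of 0 TPM. The library kit does not mark strand, so reads in these bases cannot be assigned to 1 gene.

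A set of 6 libraries, all in the larger part and labelled W5000 to W5005, stood apart from the others. Their Mki67 was 0.39 to 0.93 TPM, and 2 of the other libraries lay below their highest. H2-K1, a class I heavy chain, was 42.4 to 71.04 TPM in these 6 and at least 115.02 TPM in the rest of the larger part. Cd74 was 15 to 39.9 TPM and H2-Aa 10.45 to 26.5 TPM in them, against lowest values of 28.3 TPM and 16.7 TPM in the rest of the larger part. Tgm4 was 10.46 to 7892 TPM in the 6, within the 0.64 to 16895 TPM of the larger part, whereas the summed level of 6 luminal genes reached 92990 TPM with these libraries and 18028 TPM without them. The labels describe these 6 as they do the others. The main counts and levels of the larger part are therefore given also without them.

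The classical chains and the invariant chain made up most of the class II signal. Over all libraries the medians fell in the order Cd74, H2-Aa, H2-Ab1, H2-Eb1, H2-DMb1, H2-DMa, H2-DMb2, Ciita, H2-Ob and H2-Oa. Cd74 was 15 TPM at the lowest, 83.02 TPM at the median and 286 TPM at the highest library of the larger part. The smaller part had 1.02 TPM, 29.6 TPM and 206 TPM. It was the only member at 1 TPM or more in every library, and its highest libraries lay in the larger part. H2-Aa, the alpha chain of I-A, had 10.45 TPM, 54.3 TPM and 155 TPM in the larger part. Its values in the smaller part were 0.58 TPM, 17.3 TPM and 111.53 TPM. H2-Ab1, the beta chain of I-A, had 5.52 TPM, 36.8 TPM and 143 TPM in the larger part. The smaller part had 0.53 TPM, 12.6 TPM and 102.90 TPM. W5005 was the lowest library of the larger part for these 3 genes, and without the 6 the lowest values were 28.3 TPM for Cd74, 16.7 TPM for H2-Aa and 10.64 TPM for H2-Ab1, with medians of 91.1 TPM, 59.04 TPM and 38.4 TPM. The ranges of the 2 parts overlapped widely, and the low end of the smaller part lay below every library of the larger part. The 90th percentile was 5.14 times the 10th percentile for Cd74 in the larger part (4.34 times without the 6) and 60.8 times in the smaller part.

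H2-Eb1, the beta chain of I-E, had 0.20 TPM, 20.4 TPM and 128 TPM at the lowest, median and highest library of the larger part. It was listed at 0 in 1 library of the smaller part, with a median of 2.74 TPM and a highest value of 68.1 TPM. Its values in the larger part fell into separate sets of 60 and 19 libraries on the log2 scale, which was the case for no other member there. Its sets were 59 and 14 libraries without W5000 to W5005, with a lowest value of 0.32 TPM and a median of 22.6 TPM. The chains of the peptide exchange factor H2-M came next, well below Cd74 and H2-Aa. H2-DMa, its alpha chain, had 0.97 TPM, 3.43 TPM and 11.8 TPM in the larger part and 0.33 TPM, 1.57 TPM and 7.62 TPM in the smaller part. H2-DMb1 had 0.97 TPM, 4.11 TPM and 15.5 TPM in the larger part. Its values in the smaller part were 0.03 TPM, 1.64 TPM and 13.4 TPM. H2-DMb2 had 0.25 TPM, 1.12 TPM and 3.59 TPM in the larger part and 0.17 TPM, 0.48 TPM and 3.72 TPM in the smaller part. Its values in the smaller part fell into sets of 21 and 15. Without W5000 to W5005 the lowest values of H2-DMa and H2-DMb1 in the larger part were 1.57 TPM and 1.28 TPM, while that of H2-DMb2 was again 0.25 TPM. For all 3 genes the ranges of the parts overlapped, and the lowest libraries of the smaller part lay below the larger part.

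The H2-O chains and the coactivator were low. H2-Oa had a median of 0.22 TPM in the larger part and 0.12 TPM in the smaller part, reached 1.47 TPM at most and was listed at 0 in 4 libraries. H2-Ob had medians of 0.42 TPM and 0.14 TPM, a highest value of 2.37 TPM and 4 libraries at 0. Ciita, the master regulator, had 0.21 TPM, 0.72 TPM and 2.13 TPM in the larger part. Its values in the smaller part were 0.12 TPM, 0.44 TPM and 1.86 TPM. In all, 6 of the 10 members reached 1 TPM in 50% of the libraries or more. All 10 did so at 0.1 TPM, 9 after TPM was rescaled without the top 20 genes and 7 after median-of-ratios scaling. Side by side, with no test, the median of the larger part was 1.64 times (Ciita) to 7.48 times (H2-Eb1) that of the smaller part. These ratios were 1.65 to 7.47 without the top 20 genes and 1.93 to 10.8 with median-of-ratios scaling.

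**Figure D1:**
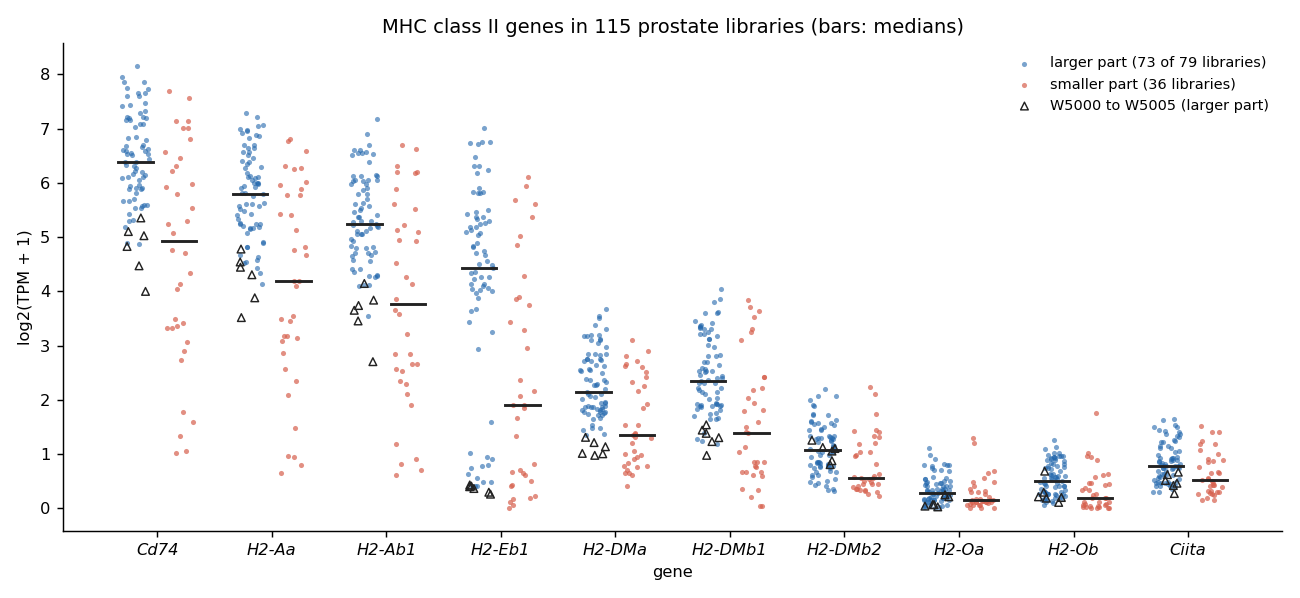
log2(TPM + 1) (vertical axis) of the 10 members (horizontal axis), 1 point per library, with the larger part on the left of each gene and the smaller part on the right. Bars are medians and open triangles are W5000 to W5005. Cd74, H2-Aa and H2-Ab1 lie highest, H2-Oa and H2-Ob lowest, and H2-Eb1 splits into a high and a low set.

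Neighbours in this order were compared within each library. Cd74 lay above H2-Aa in all 79 and all 36 libraries, and H2-Aa above H2-Ab1 in 79 of 79 and 34 of 36. The ratio of Cd74 to H2-Aa was 1.63 ± 0.160 (SD, n = 79) and 1.57 ± 0.250 (SD, n = 36), and no library lay outside 1.12 to 2.18. H2-Ab1 over H2-Aa was 0.729 ± 0.0937 (SD, n = 79) and 0.780 ± 0.160 (SD, n = 36), from 0.528 to 1.31. The ratios of these 3 genes thus varied far less between libraries than their levels. H2-Aa over Ciita was 72.9 ± 15.1 (SD, n = 79) and 41.7 ± 23.4 (SD, n = 36). It ran from 2.19 to 86.4 in the smaller part, where the lowest ratio came from a library with H2-Aa at 0.92 TPM. The order of H2-DMb1 and H2-DMa did not hold library by library, since H2-DMb1 was higher in 57 of the 79 libraries and in 15 of the 36. H2-Ob was above H2-Oa in 69 of the 79 and in 17 of the 36.

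H2-Eb1 stood out for its ratio to H2-Aa. In the H2-E region of C57BL/6 mice the alpha chain gene carries a promoter deletion and is annotated as a pseudogene, H2-Ea-ps (chromosome 17, 34341959 to 34344645). Both genes were divided by H2-Aa on the log2 scale after 0.1 TPM was added, and a threshold of -4 was set in the empty stretches between the libraries, after the values were seen. For H2-Eb1 that stretch ran from -4.46 to -2.77 and for H2-Ea-ps from -5.00 to -1.81. The libraries fell into 4 states, which are described without a test. H2-Eb1 was low in 23 libraries (20%), neither was low in 58 (50.4%), H2-Ea-ps was low in 28 (24.3%) and both were low in 6, which are W5000 to W5005.

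In the 23 libraries the TPM ratio of H2-Eb1 to H2-Aa was 0.00410 to 0.0221 with a median of 0.0114, while that of H2-Ea-ps was 0.641 to 0.861 with a median of 0.736. In the 58 libraries the medians were 0.420 for H2-Eb1 and 0.394 for H2-Ea-ps. In the 28 libraries H2-Eb1 was 0.551 to 1.03 times H2-Aa with a median of 0.877, and H2-Ea-ps was at most 0.0210 times H2-Aa. The states were set by the threshold on these same ratios. The low H2-Eb1 ratio of the first state and the low H2-Ea-ps ratio of the third therefore follow from it. The threshold did not set the rise of the H2-Eb1 ratio from the second state to the third. Nor did it set the fall of the H2-Ea-ps ratio from the first to the second. Within the larger part the H2-Eb1 ratio was 0.00665 to 0.0168, 0.375 to 0.510 and 0.802 to 1.03. The H2-Ea-ps ratio there was 0.679 to 0.861 in the first state and 0.293 to 0.544 in the second. Libraries whose H2-Aa was itself near 0 carry little information, as in the 1 library of the smaller part with H2-Aa at 0.58 TPM and H2-Eb1 listed at 0. H2-Ab1 over H2-Aa also shifted with the states in the larger part, though far less, with medians of 0.648, 0.719 and 0.813 and ranges of 0.555 to 0.702, 0.637 to 0.948 and 0.698 to 0.910 that overlapped. In the smaller part the medians of H2-Ab1 over H2-Aa were 0.708, 0.804 and 0.740, so a steady rise was not seen there. All 3 states occurred in both parts, with 14, 39 and 20 libraries in the larger part and 9, 19 and 8 in the smaller part. The genotype of the mice at the MHC was not used here, and no cause of the states was tested.

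**Figure D2:**
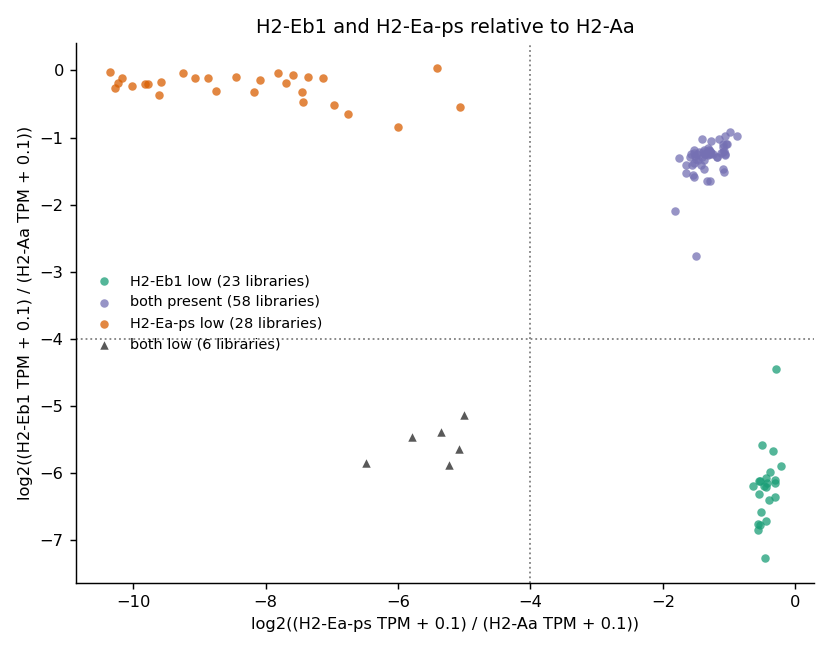
H2-Eb1 (vertical axis) and H2-Ea-ps (horizontal axis), each as log2 of its TPM + 0.1 over H2-Aa TPM + 0.1, 1 point per library. Dotted lines mark -4. The 23, 58 and 28 libraries form 3 groups of points along a descending path, and the 6 libraries W5000 to W5005 lie at the lower left.

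Members rose and fell together. Each member was tested in turn as the covariate in limma, and a pair was called when both fits gave an adjusted p under 0.05 over all genes. In the larger part 44 of the 45 pairs were called and in the smaller part 45 of 45, all positive. Many genes were related to a member in this way. Positive calls with H2-Aa made up 68% of the 23164 genes tested in the larger part and 27.1% of 23166 in the smaller part. Over the 10 members as covariate these shares in the larger part were 26.6% for H2-Eb1, 63.2% for H2-Ab1, 65% for H2-DMb1, 66.6% for Cd74, 67.5% for H2-DMa and H2-Oa, 73.9% for H2-Ob, 74.8% for H2-DMb2 and 75.4% for Ciita. In the smaller part they were 19.5% for H2-Ob, 20.6% for H2-Eb1, 28% for H2-Oa, 28.7% for Cd74, 29.1% for H2-DMb2, 29.4% for H2-Ab1, 30.5% for Ciita, 31.9% for H2-DMa and 33% for H2-DMb1. The pair not called was H2-Eb1 with H2-DMb2. Pearson's r among the 9 members other than H2-Eb1 was 0.743 to 0.988 in the larger part, with a median of 0.848 over 36 pairs (two-sided permutation p = 1e-05 for each pair, unadjusted). Here and below 1e-05 is the smallest p that 100000 resamples can give. Among the 9 other than H2-DMb2 in the smaller part it was 0.564 to 0.996 with a median of 0.743 (highest permutation p = 0.000430). That set holds H2-Eb1, so it is unlike the set of the larger part. Without H2-Eb1, and with H2-DMb2 kept, the 36 pairs of the smaller part had r of 0.634 to 0.996 with a median of 0.836. H2-Aa and Cd74 had r = 0.988 and rho = 0.989 in the larger part (limma, adjusted p = 4.26e-61 with H2-Aa as covariate) and r = 0.996 and rho = 0.994 in the smaller part (adjusted p = 2.91e-33). Ciita and H2-Aa had r = 0.918 and rho = 0.946 (adjusted p = 3.34e-29), and r = 0.872 and rho = 0.925 (adjusted p = 1.68e-09). All 8 of these coefficients had a permutation p of 1e-05. The H2-O chains, H2-Oa and H2-Ob, had r = 0.801 and r = 0.749. Without W5000 to W5005, 43 pairs were called, and the pair of H2-Eb1 and H2-Ob was then lost. The 36 pairs without H2-Eb1 then had r of 0.810 to 0.986 with a median of 0.880. The shares for the larger part above are over all 79 libraries, so the count of 43 has no share of its own beside it. It is therefore not read as a result about the members.

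With Ptprc RNA as a second covariate, 37 of the 45 pairs were called in the larger part, where the share of all genes positive with a member was 3.45% (H2-Eb1) to 27.7% (Cd74). It was 38 without W5000 to W5005, with shares of 0.169% (H2-Eb1) to 26.3% (Cd74), and the 7 pairs not called then all held H2-Eb1. In the smaller part 14 were called, with shares of 0.0% (Ciita) to 21% (H2-DMb1). The 14 were the 10 pairs among H2-Aa, H2-Ab1, H2-DMa, H2-DMb1 and Cd74, and 4 pairs with H2-DMb2, H2-Oa or H2-Ob. No pair of Ciita was among them. These fits were chosen after the data were seen.

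**Figure D3:**
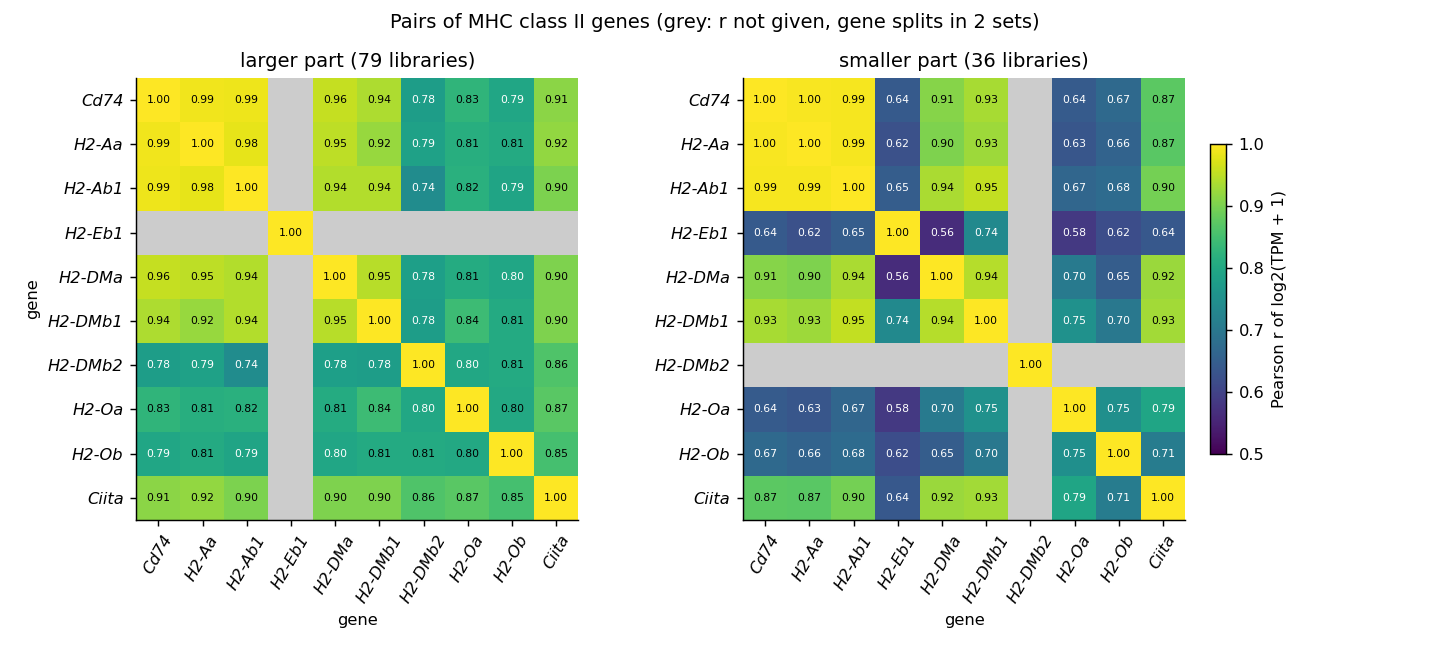
Pearson's r of log2(TPM + 1) for each pair of members in the larger part (left, 79 libraries) and the smaller part (right, 36 libraries), on a colour scale from 0.5 to 1. Grey rows mark H2-Eb1 in the larger part and H2-DMb2 in the smaller part, whose values split in 2 sets. The highest values are those among Cd74, H2-Aa and H2-Ab1.

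Among the 14622 other genes that averaged 1 TPM or more, Cd74 ranked 1 and H2-Ab1 2 by r with H2-Aa in the larger part, followed by H2-DMa (rank 3, r = 0.950) and H2-DMb1 (rank 4, r = 0.924). H2-DMb2 ranked 355, and 17 without W5000 to W5005, and H2-Eb1, over all its states, 6755 and 9651. Cd74 and H2-Ab1 in the smaller part again held ranks 1 and 2 of 14612, with H2-DMb1 at 8, H2-DMa at 34, H2-DMb2 at 484 and H2-Eb1 at 1653. These are descriptions over 79 and 36 libraries that share their scaling. The 10 genes outside the list with the highest r in the larger part were Selplg, Itgb7, Ifi47, Coro1a, Irf5, Spn, Mpeg1, Naaa, AW112010 and Pld4, from r = 0.923 for Selplg, the P-selectin ligand of leukocytes, to r = 0.892 for Pld4. Without W5000 to W5005, Gbp7, Gbp2 and Ppfia4 took the places of Naaa, AW112010 and Pld4. Those of the smaller part were Ly86, Ctss, Arhgdib, Ptprc, Ctsh, Tyrobp, C1qa, AW112010, Aif1 and Tgfbr2, from r = 0.941 for Ly86 to r = 0.924 for Tgfbr2. Ctss encodes cathepsin S, which trims the invariant chain, and C1qa, Tyrobp and Aif1 are expressed in macrophages.

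The first comparison asked whether class II expression followed the leukocyte level. In the larger part Ptprc had 0.81 TPM, 3.57 TPM and 45.1 TPM at the lowest, median and highest library, and in the smaller part 0.60 TPM, 4.00 TPM and 22.8 TPM. All 10 members were called positive with Ptprc in the larger part, where 75.8% of all genes tested were, so the count itself is little above the background. The median r of the members was 0.848 against 0.460 over all genes. H2-Eb1, whose values split in 2 sets, lay below that median of all genes. With median-of-ratios scaling the positive calls fell to 25% of all genes and the negative calls rose from 2.37% to 21.1%, and the 10 members were still called positive. Over the 10 members r was then 0.397 to 0.797, against 0.444 to 0.892 as deposited, and the median r of all genes was 0.0442. All 10 were called positive in the smaller part too, where 26.4% of all genes were positive and 13.4% negative, and their median r was 0.886 against 0.0814 over all genes.

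Over the 79 libraries of the larger part, Ciita had the highest r with Ptprc. Its r was 0.892 and rho 0.930 (permutation p = 1e-05 for each), and its coefficient was 0.39 ± 0.02 (SE) on the log2 scale per log2 unit of Ptprc (limma, adjusted p = 3.92e-26, n = 79). The coefficient of H2-Aa was 0.94 ± 0.06 (adjusted p = 4.47e-23) and that of Cd74 0.96 ± 0.07 (adjusted p = 3.44e-22). Coefficients of genes near or below 1 TPM are understated on this scale, because 1 TPM is added before the log. H2-Aa in the smaller part had r = 0.933 and rho = 0.948 (permutation p = 1e-05 for each), and a coefficient of 1.59 ± 0.10 (limma, adjusted p = 1.39e-14, n = 36). Cd74 had 1.68 ± 0.11 (adjusted p = 1.73e-14) and Ciita 0.32 ± 0.03 (adjusted p = 2.52e-11). The coefficients of the 2 parts are given side by side and their difference was not tested. Over the 9 members other than H2-Eb1, r was 0.802 to 0.892 in the larger part, 0.790 to 0.915 after the 2 libraries farthest from the median Ptprc were left out and 0.795 to 0.886 without W5000 to W5005, where 10 were called and 76.7% of all genes were positive. Without the 2 farthest libraries H2-Aa had the highest r, 0.915 against 0.909 for Ciita. The 9 members other than H2-DMb2 had, in the smaller part, r between 0.641 and 0.933, and between 0.619 and 0.938 without the 2 farthest. With Mki67 and Chga in the same fit 9 members kept the call in each part, all but H2-Eb1 in the larger part (59.5% of all genes) and all but H2-Ob in the smaller part (6.97%).

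H2-Eb1 had a coefficient of 1.15 ± 0.26 in the larger part (limma, adjusted p = 6.54e-05), over libraries of all its states. It lost the call with the 3 markers together (adjusted p = 0.247). The coefficient was 0.79 ± 0.27 without W5000 to W5005 (limma, adjusted p = 0.00698). Within a state, r of H2-Eb1 with Ptprc was 0.819 and rho 0.922 in the 39 libraries of the larger part with both genes present, r = 0.929 and rho = 0.925 in the 20 with H2-Ea-ps low, and r = 0.956 and rho = 0.939 in the 19 of the smaller part with both present. These are descriptions, since the states were set on the ratio of H2-Eb1 to H2-Aa, which itself goes with Ptprc.

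**Figure D4:**
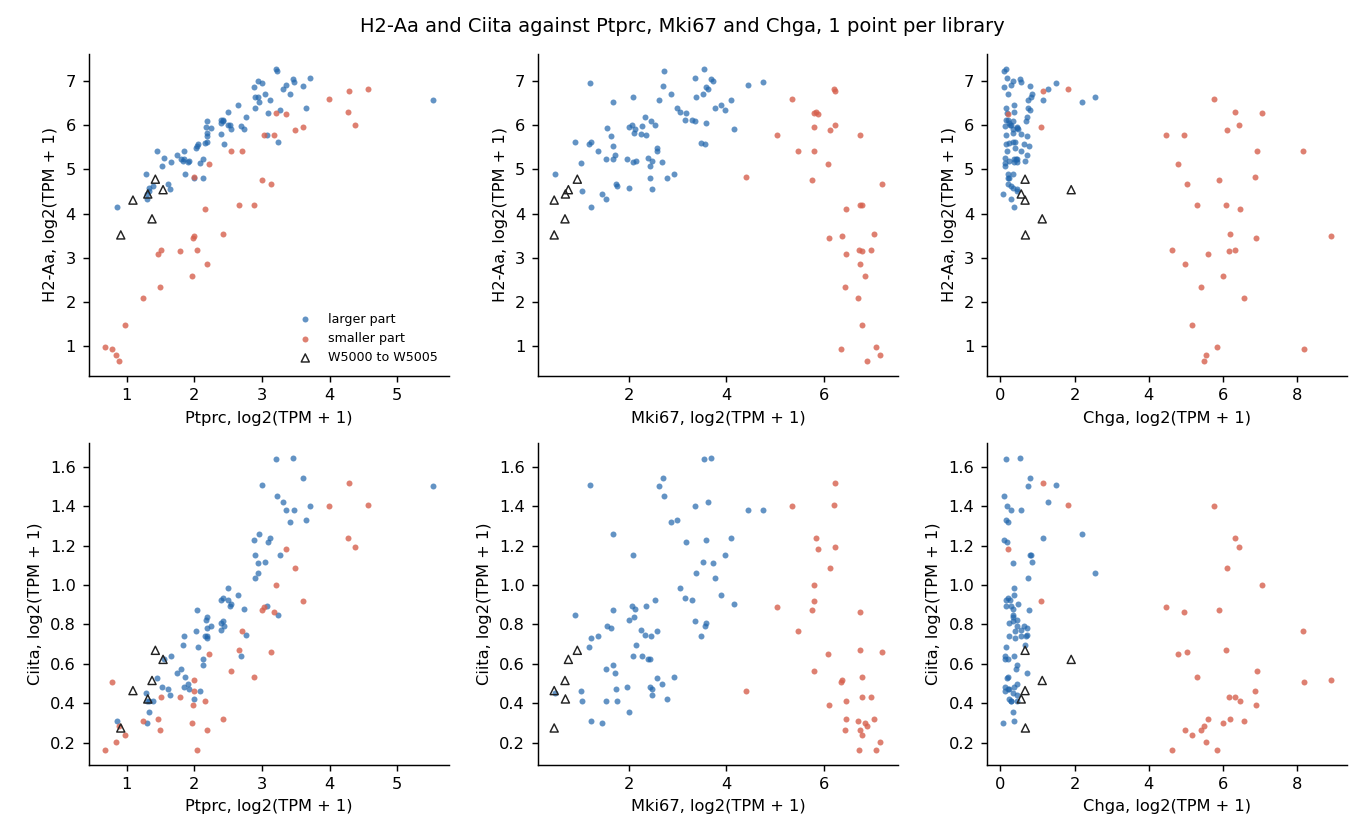
log2(TPM + 1) of H2-Aa (top) and Ciita (bottom) on the vertical axes against Ptprc, Mki67 and Chga on the horizontal axes, 1 point per library, coloured by part, with W5000 to W5005 as open triangles. Both genes rise with Ptprc in each part, rise with Mki67 in the larger part and fall with it in the smaller part. The 4 libraries of the smaller part with Chga below 10 TPM lie at the upper left of the Chga panels.

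Leukocyte types were examined with 4 further marker genes. All 10 members were called positive in both parts with C1qa, a complement gene of macrophages (66% of all genes in the larger part and 31.2% in the smaller part). Their r with C1qa, without the member that splits, was 0.678 to 0.894 in the larger part and 0.590 to 0.937 in the smaller part. With Cd3e of T cells, 10 were called in the larger part (57.5% of all genes) and 0 in 25 libraries of the smaller part (0.0%). With the dendritic cell receptor Flt3 and the B cell gene Cd79a, 9 were called in the larger part (46.2% and 56.7%), the exception being H2-Eb1, and 0 in the smaller part (0.0% and 0.0950%). Without W5000 to W5005 the counts in the larger part were again 10 with C1qa (71.9% of all genes), 10 with Cd3e (56.4%), 9 with Flt3 (43%) and 9 with Cd79a (54.4%), and r with C1qa was 0.675 to 0.858. For these 3 genes in the smaller part limma called 0 members, while 3, 8 and 1 had an unadjusted p under 0.05 with Cd3e, Flt3 and Cd79a. Over the members other than H2-DMb2, r was -0.0652 to 0.480, 0.163 to 0.662 and -0.00286 to 0.419. With Cd3e or Flt3 no gene at all was called in the smaller part, so 0 calls say nothing particular of the members. Flt3 and Cd3e split in 2 sets there, which left 24 and 25 libraries, and Flt3 split in the larger part too, where 51 libraries were used. These markers were low, with medians of 0.0350 TPM for Cd3e, 0.0800 TPM for Flt3 and 0.265 TPM for Cd79a in the smaller part, against 33.8 TPM for C1qa. With Ptprc in the fit, C1qa kept 6 calls in the larger part, where 13.1% of all genes were positive (H2-Aa, H2-Ab1, H2-Eb1, H2-DMa, H2-DMb1 and Cd74) and 3 in the smaller part, where 11.7% were (H2-Aa, H2-Ab1 and Cd74). Cd79a then kept 2 calls in the larger part, H2-DMb2 and H2-Ob, where 2.4% of all genes were positive. Cd3e and Flt3 kept 0 there, where 12.4% and 0.0% of all genes were positive. In the smaller part Cd79a, Cd3e and Flt3 had 0 calls in that fit (0.0950%, 0.0% and 0.0% of all genes).

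Marker lists of leukocyte types were counted against the 75.8% and 26.4% of all genes that were positive with Ptprc in the larger and smaller part, and differences between the lists were not tested. All 10 of 10 macrophage genes were positive in both parts, with a median r of 0.890 and 0.899. All 10 had a median of 1 TPM or more over all libraries, and their summed level was 24.7 to 1620 TPM in the larger part and 24.6 to 963 TPM in the smaller part. Dendritic cell genes were positive in 9 of 9 and 6 of 9, with summed levels of 1.64 to 18.1 TPM and 5.15 to 34.5 TPM. T cell genes were positive in 7 of 7 in both parts, with a median r of 0.625 and 0.721. Of 6 B cell genes tested, 6 and 1 were positive, and their median r was 0.421 and 0.113 against 0.460 and 0.0814 over all genes. The summed level of the 8 B cell genes was 0.28 to 7.86 TPM and 0.85 to 12.2 TPM, and none reached a median of 1 TPM. Without W5000 to W5005 the counts in the larger part were 10 macrophage, 8 dendritic cell, 7 T cell and 6 B cell genes. In that fit 76.7% of all genes were positive. No listed leukocyte gene had a median of 0. Which cells carried the class II RNA was not tested.

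The second comparison asked whether class II expression followed proliferation. Mki67 had 0.39 TPM, 4.23 TPM and 25.7 TPM in the larger part and 20 TPM, 83.5 TPM and 144 TPM in the smaller part. In the larger part all 10 members were positive with Mki67, where 55.9% of all genes tested were positive and 2.53% negative. Cd74 had r = 0.712 and rho = 0.692 (permutation p = 1e-05 for each), with a coefficient of 0.62 ± 0.07 (limma, adjusted p = 1.73e-12). H2-Aa had r = 0.689 and rho = 0.677, with a coefficient of 0.59 ± 0.07 (adjusted p = 1.76e-11), and H2-DMb2 had the lowest r, 0.448. Over the 9 members other than H2-Eb1, r was 0.444 to 0.693 once the 2 libraries farthest from the median Mki67 were left out. It was 0.486 to 0.636 without W5000 to W5005, where all 10 were called and 57% of all genes were positive. With median-of-ratios scaling 16.6% of all genes were positive and 20.8% negative, and 9 of the 10 members were positive, all but H2-DMb2. Over all 10 members r was then 0.130 to 0.579, against 0.448 to 0.712 as deposited. The median r of all genes was -0.0585 with that scaling and 0.303 as deposited. With Chga and Ptprc in the same fit 6 remained (H2-Aa, H2-Ab1, H2-Eb1, H2-DMa, H2-DMb1 and Cd74), where 32.4% of all genes were positive.

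With Mki67 in the smaller part 8 of the 10 members were negative, where 17.8% of all genes tested were negative and 24.5% positive. The exceptions were H2-Eb1, with a coefficient of -0.99 ± 0.51 (limma, adjusted p = 0.112), and H2-Oa, with -0.16 ± 0.08 (adjusted p = 0.0896). H2-Ab1 had r = -0.619 (permutation p = 4e-05) and rho = -0.681 (permutation p = 1e-05), with a coefficient of -1.85 ± 0.39 (limma, adjusted p = 0.000329, n = 36). Cd74 had a coefficient of -1.92 ± 0.42 (adjusted p = 0.000471) and H2-Aa one of -1.79 ± 0.40 (adjusted p = 0.000527). For the 9 members other than H2-DMb2, r lay between -0.622 and -0.309, and between -0.745 and -0.411 without W370 and W4419, which lay farthest from the median Mki67. All 10 were negative without those 2, where 22.8% of all genes were, and all 10 with median-of-ratios scaling, where 30.7% of all genes were. With Chga and Ptprc in the fit 7 remained negative, where 11.1% of all genes were. The ranges of Mki67 in the 2 parts barely overlap, and the change of sign between the parts was not tested. Of the macrophage genes 10 of 10 were positive with Mki67 in the larger part, against 55.9% of all genes. The count was 9 without W5000 to W5005, against 57%, and 8 with median-of-ratios scaling, against 16.6%. In the smaller part 10 of 10 were negative, against 17.8%. With Chga and Ptprc in the same fit as Mki67, 1 macrophage gene was positive and 1 negative in the larger part. There 32.4% of all genes were positive and 10.1% negative. In the smaller part 0 macrophage genes were called in that fit, where 11.1% of all genes were negative. The members called in that fit were 6 positive in the larger part and 7 negative in the smaller part. Of T cell genes in the larger part 7 of 7 were positive with Mki67, and 6 in that fit. Of 9 dendritic cell genes 7 were positive, and 6 positive and 2 negative in that fit. Of 6 B cell genes tested 3 were positive, and 0 positive and 2 negative in that fit. The part of macrophages and other leukocytes in these relations was not tested.

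**Figure D5:**
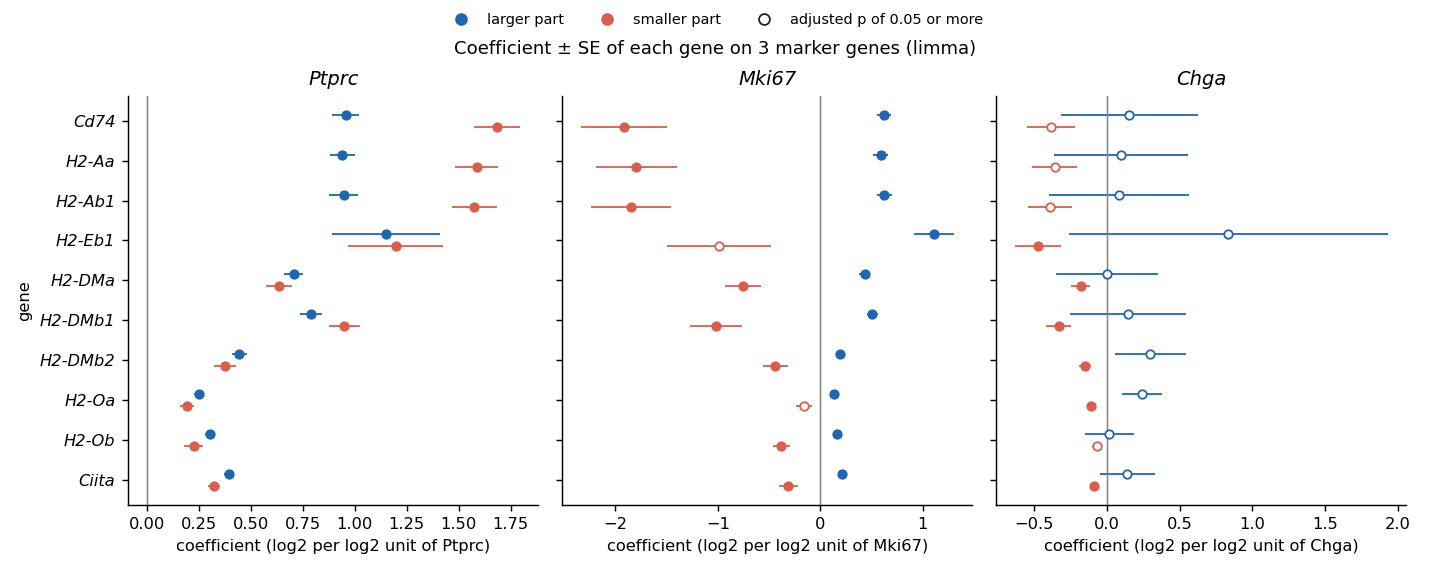
Coefficient ± SE from limma (horizontal axis, log2 units per log2 unit of the marker) of each member (vertical axis) on Ptprc, Mki67 and Chga, in the larger part (79 libraries, 72 for Chga) and the smaller part (36). Open symbols have an adjusted p of 0.05 or more. All 10 are above 0 with Ptprc in both parts, and those with Mki67 lie on opposite sides of 0 in the 2 parts.

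The third comparison asked whether class II expression was related to the neuroendocrine marker Chga. Chga was 0.06 TPM, 0.30 TPM and 4.84 TPM in the larger part, and its values split in 2 sets, so the 72 libraries of the lower set were used. Their Chga was at most 0.81 TPM, so this fit spans little of the log2(TPM + 1) scale and says little on whether a relation exists. limma called 0 of the 10 members, where 0.976% of all genes were called positive and 0.0% negative. Of the members, 0 had an unadjusted p under 0.05. Shares of all genes in this and the next paragraph count an adjusted p under 0.05. They are no background for counts by unadjusted p or by sign. With median-of-ratios scaling 0 were called again, where 2.66% of all genes were called positive and 2.55% negative. By unadjusted p 5 members were under 0.05, and the 10 coefficients were below 0. In all 79 libraries 0 were called and 1 had an unadjusted p under 0.05, where 18.6% of all genes were positive. Over 9 members r was 0.000430 to 0.205, with a lowest permutation p of 0.0860 (H2-Oa). Without W5000 to W5005 the 9 had r between 0.0870 and 0.289 in 68 libraries, and 0 were called while 2 had an unadjusted p under 0.05 (0.960% of all genes called).

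Chga in the smaller part had 0.15 TPM, 57.2 TPM and 479 TPM, and 6 of the 10 members were negative with it, where 19.3% of all genes tested were negative and 8.78% positive. They were H2-Eb1, H2-DMa, H2-DMb1, H2-DMb2, H2-Oa and Ciita. H2-Oa had the lowest adjusted p, with a coefficient of -0.11 ± 0.02 (limma, adjusted p = 0.000167), r = -0.677 (permutation p = 8e-05) and rho = -0.355 (permutation p = 0.0334). H2-Aa had a coefficient of -0.36 ± 0.15 (adjusted p = 0.0773), and Cd74 one of -0.38 ± 0.16 (adjusted p = 0.0750). These relations rest on few libraries. In 4 of the 36, Chga was 0.15 to 2.55 TPM, and in the other 32 at least 21.1 TPM. H2-Aa was 61.63 to 111.53 TPM and Ptprc 9.19 to 22.76 TPM in the 4, all among the highest 8 of the smaller part for both genes. Within the 32 libraries the 9 members other than H2-DMb2 had r between -0.191 and 0.107, with permutation p of 0.293 to 0.964. Without W1118 and W1050, which lay farthest from the median Chga, 1 member was called, H2-Oa, and 4.93% of all genes were negative. With Mki67 and Ptprc in the fit 3 were (11.2% of all genes). With ranks in place of log2 values limma called 0, and 1 had an unadjusted p under 0.05, but only 0.0691% of all genes were negative in that fit. The 32 libraries were set apart after the values were seen.

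The other genes of the pathway followed the members in part. Of 24 listed, 22 were tested, since H2-Eb2 and Ifng were below the filter. In the larger part 22 of 22 were positive with Ptprc, where 75.8% of all genes were, with a median r of 0.754. With Mki67 20 of 22 were, against 55.9%. Both counts were 19 without W5000 to W5005, against 76.7% of all genes with Ptprc and 57% with Mki67. Of the 22, 15 were positive with Ptprc in the smaller part (median r of 0.635), against 26.4% of all genes. With Mki67 10 were negative, against 17.8%, and 4 positive, against 24.5%, so the positive count is not above the background. The 7 that were not called with Ptprc there held the promoter-binding factors Rfx5, Rfxap, Creb1, Nfya, Nfyb and Nfyc, and March1, a ligase that removes class II from the surface. Rfx5, a subunit of the complex on the X box, had r = -0.356 with Ptprc (limma, adjusted p = 0.0730) and r = 0.620 with Mki67 (adjusted p = 0.000489). The 4 that were positive with Mki67 were Rfx5, Nfyc, Creb1 and Nfya, and Nfyc had r = 0.598 (adjusted p = 0.00102). The lysosomal protease Ctss went with the members, with r = 0.937 for Ptprc (adjusted p = 6.02e-15) and r = -0.476 for Mki67 (adjusted p = 0.00944). The same held for Cd86, a costimulatory ligand, with r = 0.931 for Ptprc (adjusted p = 1.78e-13) and r = -0.410 for Mki67 (adjusted p = 0.0312). Their medians were 31.1 TPM for Ctss, 0.92 TPM for Cd86 and 8.16 TPM for Rfx5 in the smaller part. With median-of-ratios scaling, 13 of the 22 were positive and 4 negative with Ptprc in the larger part, against 25% and 21.1% of all genes. In the smaller part 14 and 1 were, against 20.7% and 19.2%.

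MHC class I genes, which present peptides of the cell's own proteins, were 10 of 10 positive with Ptprc in both parts, against 75.8% and 26.4% of all genes, and 10 in the larger part without W5000 to W5005, against 76.7%. Their median r was 0.744 and 0.737, against 0.848 and 0.886 for the class II members, and the differences were not tested. With Mki67 all 10 were positive in the larger part, against 55.9% of all genes (median r of 0.806, and 10 again without W5000 to W5005, against 57%). In the smaller part 8 were negative, against 17.8% (median r of -0.506). With Chga in the smaller part all 10 were negative, where 19.3% of all genes were. The 4 libraries with the lowest Chga held high class I levels too, with H2-K1 at 489.3 to 966.8 TPM against a median of 52.4 TPM in the smaller part, and the relation of class I to Chga without these 4 was not tested.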

How the data were processed

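RNA was sequenced from prostate tissue of 115 transgene-positive (TRAMP x WSB) F2 males. Per the labels, reads were handled with CASAVA 1.8.2, Bowtie2 2.2.5 and RSEM 1.2.20 on GRCm38. According to the methods, reads were trimmed and aligned to the transcripts of both parental strains, which Seqnature had built. The authors deposited TPM per gene, with no depth, so no count model was used. Nothing says that libraries share an animal.

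Values were transformed to log2(TPM + 1) from the deposited TPM. Genes that averaged 0.1 TPM or more were fitted with limma 3.58.1 (R 4.3.3) on the marker gene, within each part, and p-values were adjusted by the Benjamini-Hochberg method over all of them, with a threshold of 0.05. Libraries (on the first principal component) or values counted as separate where a 2-component Gaussian mixture improved the BIC by more than 10, with Ashman D above 2 and 6 or more libraries in each set. Where a marker separated, its larger set was used. Permutation tests were two-sided with 100000 resamples and unadjusted. The members, marker genes, lists and naming rules (the 10 members, 7 marker genes, the pathway list and the 10 genes most like H2-Aa) were chosen with earlier results of these data known. Near copies were sought with BLAST+ 2.17.0. Correlations used scipy 1.17.1 with numpy 2.4.6, mixtures used scikit-learn 1.9.0, and tables and plots were made with pandas 2.3.3 and matplotlib 3.10.9 under Python 3.11.15. The fits were tested on simulated data. Results of some listed genes are not reported here.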

Additional observations from a re-analysis of the deposited data

How the results depend on the processing

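Alternatives were a pseudocount of 0.1, median-of-ratios scaling, leaving out the top 20 genes before rescaling, a filter at a mean of 1 TPM or none, the 3 markers together, ranks, and the 2 libraries farthest from the marker's median left out. Leaving out W5000 to W5005 was added after the data were seen. Members called with Ptprc (at least 7, with 7 tested at 1 TPM) and with Mki67 in the smaller part kept their direction throughout. With the 3 markers together, 6 members were called with Mki67 in the larger part and 3 with Chga in the smaller part. The latter count was 1 without the 2 farthest libraries and 0 with ranks. The coefficient of H2-DMb2 on Mki67 in the larger part turned from 0.19 to -0.0089 with the 3 markers together (adjusted p = 0.866). The cause was not tested. At a mean of 1 TPM 7 members were tested, and 20 and 21 of 21 pairs were called in the larger and smaller part. These 2 counts have no share of all genes beside them and are not read as a result about the members. With Ptprc in the fit 14 pairs were called in the smaller part. At 0.1 TPM 10 members were detected. Of 425 coefficients under alternatives, those on Chga in the larger part not counted, 386 kept their direction and their side of the threshold, 30 lost the call, 8 gained it and 1 reversed. The 10 coefficients on Chga in the larger part, none of them called, were all above 0 as deposited and all below 0 with median-of-ratios scaling. The median coefficient of all genes on Chga also fell there, from 0.176 to 0.0117. That scaling moved the median coefficient of all genes on Ptprc in the larger part from 0.19 to 0.01. The 2 parts held 79 and 36 libraries under each of 3 alternatives. The depth behind low members such as H2-Oa is unknown. No paired analysis was possible because all mice belong to 1 group and carry no pairing.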
